A study of Mus musculus with 6 samples.

Results

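The Fos and Jun family supplies the subunits of AP-1, a dimeric transcription factor. The genes described here are the 4 Fos members (Fos, Fosb, Fosl1 and Fosl2) and the 3 Jun members (Jun, Junb and Jund1, now named Jund). The family was chosen with earlier results of these data known. Its probes were taken by name alone, as every non-control probe whose gene name in the array files was one of these 7. That gave 9 probes of 41174, for 7 of 27670 gene names, because Fosl2 and Junb had 2 probes each. All 9 probes were well above background on all 6 arrays.

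RNA came from primary mouse embryonic fibroblasts (MEFs), cells grown out of mouse embryos, kept in DMEM with 10% fetal calf serum. There were 3 groups: untreated cells (0 h), cells after 2 h in 1 mM hydrogen peroxide (H2O2, an oxidant) and cells after 4 h in 1 mM H2O2, each with 2 one-colour Agilent arrays from experiments that the labels call independent. The strain, the genotype and whether the experiments differed in embryo, culture or day are not given in the sources used here. Untreated cells were taken at 0 h alone, so a change with time in culture and one with H2O2 cannot be told apart.

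A Fos protein binds DNA as a pair with a Jun protein, joined through a leucine zipper, while Jun proteins can also pair with one another. In fibroblasts several of these genes are immediate early genes: serum, growth factors or stress switch on their transcription within minutes without new protein synthesis, and many of the transcripts are short-lived. Stress-activated kinases, the JNK and p38 families, act on Jun, on Atf2 and on factors bound to the Fos promoter. AP-1 in turn drives genes for proteases, growth factors and antioxidant enzymes.

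The promoters are shown because several members moved together at 2 h and because CREB/ATF and AP-1 sites in this stretch are textbook sites of control for Fos and Jun. The RefSeq table (build GRCm38.p6) matched 6 of the 7 members, all but Fosl1. The 250 bases before each transcription start were searched on both strands for TGACTCA (the AP-1 site), TGACGTCA (the cAMP response element, CRE), TGACATCA (the AP-1 site variant known from the Jun promoter), TGACG (the start of the CRE, also counted inside TGACGTCA), the CArG box bound by serum response factor, and TATAA. The 4 windows with a match follow, 5′ to 3′ on the strand of the gene, with matches in capitals. The Fos window is chr12:85473640-85473889 on the plus strand, Fosb is chr7:19310046-19310295, Jun is chr4:95052223-95052472 and Junb is chr8:84978749-84978998, the last 3 on the minus strand.
Fos: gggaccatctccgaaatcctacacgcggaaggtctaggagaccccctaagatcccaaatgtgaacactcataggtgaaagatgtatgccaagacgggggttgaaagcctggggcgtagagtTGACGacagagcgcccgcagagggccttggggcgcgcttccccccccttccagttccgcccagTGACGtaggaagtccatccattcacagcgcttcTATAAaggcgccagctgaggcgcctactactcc
Fosb: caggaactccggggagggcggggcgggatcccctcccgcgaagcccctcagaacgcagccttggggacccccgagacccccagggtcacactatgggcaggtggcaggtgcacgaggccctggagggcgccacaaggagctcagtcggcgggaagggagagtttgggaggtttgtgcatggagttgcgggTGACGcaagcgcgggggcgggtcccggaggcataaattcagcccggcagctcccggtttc
Jun: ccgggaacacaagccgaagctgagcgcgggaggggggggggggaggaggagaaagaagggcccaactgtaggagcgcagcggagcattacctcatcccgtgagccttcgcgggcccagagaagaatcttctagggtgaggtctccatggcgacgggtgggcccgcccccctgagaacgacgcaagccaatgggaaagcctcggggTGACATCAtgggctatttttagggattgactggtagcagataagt
Junb: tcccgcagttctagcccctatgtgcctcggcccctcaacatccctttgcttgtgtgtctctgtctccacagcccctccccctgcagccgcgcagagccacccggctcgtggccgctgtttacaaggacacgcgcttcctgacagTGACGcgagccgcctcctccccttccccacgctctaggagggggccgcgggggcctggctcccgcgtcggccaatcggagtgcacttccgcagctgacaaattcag

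Counted from the base before the start as -1, Jun held TGACATCA at -45 to -38, a motif found in 2.93% of 32851 windows of this length. The letters TGACG stood at -129 to -125 and at -66 to -62 in Fos, at -60 to -56 in Fosb and at -106 to -102 in Junb, and 17.8% of all windows held them. Fos also had TATAA at -33 to -29 (22.8% of all windows). No member's window held TGACTCA (4.46%), TGACGTCA (1.55%) or a CArG box (1.47%), and none of the 6 motifs was found in the Fosl2 and Jund windows. These are matches of letters and show no binding. Bases further upstream were not searched, so the absence of a motif, the CArG box included, holds for these windows alone.

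Levels are given as the log2 of a probe's processed signal minus the log2 of its array's 75th percentile, so 0 is the 75th percentile of that array. A level belongs to its probe and is compared between arrays only. The 75th percentile signal was between 674.4 and 882.8, spots well above background made up between 57.3% and 68% of each array, no spot was saturated, and the 2 arrays of each group correlated with r between 0.992 and 0.994 over genes. All 10 fibroblast markers (Col1a1, Dcn, Thy1, Pdgfra and others) were well above background on all 6 arrays. Their summed level, as a multiple of the 75th percentile, was 849 to 889 in untreated cells, 1050 to 1060 at 2 h and 985 to 1030 at 4 h. The Pdgfra probe was at 3.03 and 3.18 in untreated cells, 1.44 and 1.5 at 2 h, and 1.82 and 2.02 at 4 h. Macrophage markers (5 of 6 above background on all arrays) summed to 17.6 to 18.9, 20.9 to 21.1 and 19.8 to 20.9 in these groups, and their part in the results was not tested. Most of each macrophage sum was the Lyz2 probe (17.2 and 15.9, then 19 and 18.9, then 18.9 and 17.7). The Ptprc probe read between 0.13 and 0.145 on all arrays, and Adgre1 between 0.546 and 0.642. Csf1r read 0.506 and 0.49 in untreated cells, 0.73 and 0.65 at 2 h, and 0.736 and 0.734 at 4 h. Cd68 read 0.427 and 0.418, then 0.637 and 0.603, then 0.61 and 0.554. Endothelial markers (3 of 8, with Cdh5 and Tie1 above background on no array) summed to 0.473 to 0.54, 0.987 to 1.1 and 0.959 to 0.981. Vwf read 0.0876 and 0.0922 in untreated cells, 0.315 on both 2 h arrays, and 0.437 and 0.403 at 4 h. Robo4 was above background on the 4 H2O2 arrays alone and Pecam1 on the 2 h arrays alone. Cldn5 read 0.00654 and 0.0191, then 0.213 and 0.109, then 0.0337 and 0.0296. Tek stayed between 0.0782 and 0.102. The part of these markers was not tested either. Epithelial markers (1 of 5) summed to 0.223 to 0.27, 0.346 to 0.566 and 0.312 to 0.315, with Epcam and Cldn4 above background on no array and Cdh1 on the 4 H2O2 arrays alone. Skeletal muscle markers (3 of 4, Myod1 on no array) summed to 4.62 to 6.71, 5.33 to 7.86 and 5.18 to 6.38, and the part of both lists was not tested. In such whole cultures, fewer cells of a type and less RNA per cell cannot be told apart.

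After 2 h in H2O2, transcripts of 6 of the 7 genes were higher than in untreated cells. Fosb rose 9.03-fold, Junb 2.51-fold and Fosl1 2.41-fold, while Jun (1.54-fold), Fos (1.53-fold) and Jund1 (1.49-fold) rose less. The brighter Fosl2 probe did not pass the test and its second probe did. After 4 h the members had parted: Fosl1 stood 3.32-fold over untreated cells, Fosb 2.02-fold, Fos 1.9-fold and Junb 1.88-fold, while Jun was at 0.934-fold. Of all 17161 genes tested, 23.8% rose and 15.3% fell at 2 h (39.2% in either direction), so a rise was common on these arrays. The median change was 0.62 on the log2 scale over the 7 members and 0.12 over all genes. Called here means an adjusted p under 0.05 in limma, over all genes of a comparison.

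Scaling bears on these counts. Without scaling between arrays, or with arrays scaled on 7 spike-in probes, 3 members rose at 2 h (Fosb, Fosl1 and Junb). With the spike-ins Fosl2 turned to a fall (-0.34, adjusted p = 0.0365). Of all 17161 genes, 1528 and 1458 rose in these settings, in that order, and 5704 and 9194 fell. The median change of all genes at 2 h was then -0.22 and -0.33 on the log2 scale. Of all genes called at 2 h, 60.8% were rises here, against 44.7% with quantile normalization, 32.5% with median centring, 21.1% without scaling and 13.7% with the spike-ins. Set against the median of all genes, which is the same under any shift of whole arrays, the changes at 2 h were 3.06 for Fosb, 1.21 for Junb, 1.15 for Fosl1, 0.50 for both Jun and Fos, 0.46 for Jund1 and -0.01 for Fosl2.

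**Figure D1:**
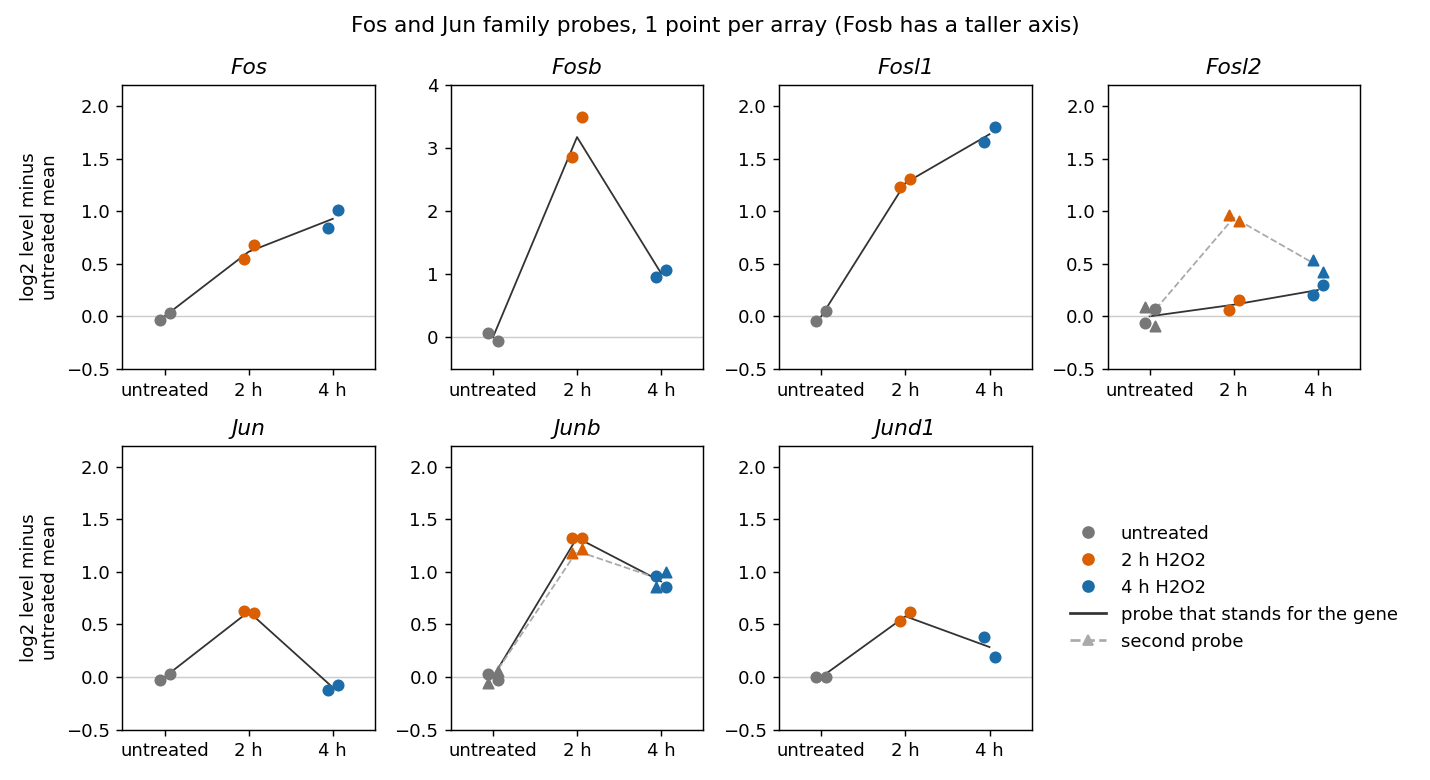
Level of each probe on each array as a log2 difference from its untreated mean, by group (untreated, 2 h and 4 h in H2O2), 1 point per array. Lines join group means, circles are the probe that stands for the gene, and triangles are the second probes of Fosl2 and Junb. Fosb has a taller axis, Jun lies near its untreated level at 4 h, and the probes of Fosl2 part at 2 h.

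Among the Fos members, Fos itself is the founding member, the cellular counterpart of a retroviral oncogene. Its level was -2.65 and -2.58 on the untreated arrays, -2.07 and -1.93 at 2 h, and -1.77 and -1.60 at 4 h. No 2 groups overlapped, and the level was highest at 4 h. The log2 change was 0.61 ± 0.09 at 2 h against untreated (SE, n = 2 arrays a group here and below, adjusted p = 0.00806) and 0.93 ± 0.09 at 4 h against untreated (1.9-fold, adjusted p = 0.00247). Within slide 1 and slide 2, each of which carried 1 array of every group, the change was 0.58 and 0.65 at 2 h and 0.88 and 0.97 at 4 h. The further step of 0.31 ± 0.09 at 4 h against 2 h did not pass (adjusted p = 0.0606), and passed with the replicate number as a block (adjusted p = 0.0173). The 2 h rise was lost without scaling (0.28, adjusted p = 0.179), with the spike-ins (0.16, adjusted p = 0.226) and with normexp background correction before the 75th percentile (0.50, adjusted p = 0.145). Normexp with quantile normalization gave 0.34 at 2 h and 0.56 at 4 h, both passed.

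Fosb encodes an activating Fos protein with a strong induced response in many cell types. Its signal was 42.4 and 41.4 on the untreated arrays, 239.6 and 373.8 at 2 h, and 64.1 and 77.9 at 4 h. In percent of the array's 75th percentile these were 5.13% and 4.69%, 35.5% and 55.2%, and 9.5% and 10.3%. It was low before treatment, rose far above that at 2 h, and fell back at 4 h to a level still above both untreated arrays. The 2 arrays at 2 h lay further apart (SD 0.45 on the log2 scale) than those of any other member's group.

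The change for Fosb at 2 h was 3.17 ± 0.22 (adjusted p = 0.00103), with 2.79 on slide 1 and 3.56 on slide 2. It ranked as the 337th largest rise of the 17161 genes. At 4 h against untreated it was 1.01 ± 0.22 (2.02-fold, adjusted p = 0.0227), with 0.89 and 1.14 on the slides, and 4.47-fold lower at 4 h than at 2 h (-2.16 ± 0.22, adjusted p = 0.00481). That difference was the 78th largest of the 17161 genes in either direction. The untreated signal was low, and the size differed with the background treatment, a link that was not tested. Normexp with quantile normalization gave 1.86 at 2 h and 0.37 at 4 h (adjusted p = 0.132). With normexp before the 75th percentile the difference at 4 h against 2 h was -1.17 and did not pass (adjusted p = 0.104). Leaving out either untreated array or either 4 h array ended the 4 h call (0.95 to 1.08, adjusted p between 0.0695 and 0.0923).

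Fosl1 encodes Fra-1, a Fos protein that lacks the strong activation domain of Fos and is known to be a target of AP-1 itself. Its level was -0.50 and -0.41 on the untreated arrays, 0.77 and 0.86 at 2 h, and 1.20 and 1.35 at 4 h. It climbed at each time, with no overlap between groups. The change was 1.27 ± 0.08 at 2 h (adjusted p = 0.000824, 1.27 and 1.26 on the slides) and 1.73 ± 0.08 at 4 h (3.32-fold, adjusted p = 0.000503, 1.71 and 1.76). Spike-in scaling gave 0.82 at 2 h, still past the test. Of the 7 members Fosl1 alone passed as higher at 4 h than at 2 h (0.46 ± 0.08, adjusted p = 0.0168, 0.43 and 0.49). This last call was lost without either 2 h array (0.42 and 0.50) and without 4 h replicate 2 (0.39), with an adjusted p of up to 0.0881.

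Fosl2 encodes Fra-2, the relative of Fra-1. Its brighter probe read 0.48 and 0.62 on the untreated arrays, 0.61 and 0.71 at 2 h, and 0.75 and 0.85 at 4 h. The untreated and 2 h arrays overlapped. The change was 0.11 ± 0.08 at 2 h (adjusted p = 0.328) and 0.25 ± 0.08 at 4 h (adjusted p = 0.0651), and the 4 h change passed with the replicate block (adjusted p = 0.014). The second probe, 4536 bases away by the coordinates in the files, read -3.44 and -3.62 on the untreated arrays, -2.57 and -2.62 at 2 h, and -3.00 and -3.11 at 4 h. It rose by 0.94 ± 0.09 at 2 h (1.92-fold, adjusted p = 0.00263) and by 0.48 ± 0.09 at 4 h (adjusted p = 0.0153), and it was lower at 4 h than at 2 h (-0.46 ± 0.09, adjusted p = 0.0239). The probes of this gene thus differed both in size and in time course, and no single value stands for Fosl2. With the mean of the probes, Fosl2 passed at 2 h (0.52) and at 4 h (0.36).

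Jun is the founding Jun member, whose protein is activated by JNK. Its level was 1.24 and 1.30 on the untreated arrays, 1.90 and 1.88 at 2 h, and 1.15 and 1.20 at 4 h. The 2 h arrays stood above all others, and the 4 h arrays lay just below the untreated ones. The change at 2 h was 0.62 ± 0.06 (adjusted p = 0.00205, 0.66 and 0.58 on the slides), and was lost without scaling (0.28, adjusted p = 0.086) and with the spike-ins (0.17, adjusted p = 0.0949). Jun fell 1.65-fold at 4 h against 2 h (-0.72 ± 0.06, adjusted p = 0.00293, -0.75 and -0.69), a call that held in all 20 other settings. The difference at 4 h against untreated was -0.10 ± 0.06 (adjusted p = 0.224). It passed as a fall with median centring (-0.26, adjusted p = 0.0442), without scaling (-0.36, adjusted p = 0.0476) and with the spike-ins (-0.36, adjusted p = 0.0145).

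Junb encodes a Jun protein that can restrain Jun on some targets. Its brighter probe read 3.97 and 3.92 on the untreated arrays, 5.27 and 5.28 at 2 h, and 4.91 and 4.81 at 4 h. The 2 arrays at 2 h were close (SD 0.002), and no 2 groups overlapped. The change was 1.32 ± 0.06 at 2 h (adjusted p = 0.000406) and 0.91 ± 0.06 at 4 h (1.88-fold, adjusted p = 0.00108), with 1.30 and 1.35, then 0.93 and 0.88, on the slides. Spike-in scaling gave 0.87 at 2 h, still past the test. Junb was lower at 4 h than at 2 h by 1.33-fold (-0.42 ± 0.06, adjusted p = 0.011), or -0.23 with the spike-ins.

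The second Junb probe shares 22 of its 60 bases with the first by the coordinates in the files, so it is not an independent reading. It read 2.879 and 2.998 on the untreated arrays, 4.12 and 4.16 at 2 h, and 3.80 and 3.94 at 4 h. It rose by 1.20 ± 0.08 at 2 h (adjusted p = 0.00109) and by 0.93 ± 0.08 at 4 h (adjusted p = 0.00217). The step at 4 h against 2 h was -0.27 ± 0.08 on this probe and did not pass (adjusted p = 0.0704). On the first probe that step was also lost without either 2 h array (-0.42 and -0.41, adjusted p = 0.0638 and 0.063).

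Jund1 encodes JunD, the Jun protein that is present in resting cells and varies least with growth signals. Its level was 4.86 and 4.85 on the untreated arrays, 5.39 and 5.47 at 2 h, and 5.24 and 5.04 at 4 h. All H2O2 arrays lay above both untreated arrays. The change was 0.58 ± 0.09 at 2 h (adjusted p = 0.00882, 0.53 and 0.62 on the slides) and 0.28 ± 0.09 at 4 h, which did not pass (adjusted p = 0.0548, 0.38 and 0.19). The 4 h arrays differed by -0.29 ± 0.09 (adjusted p = 0.0663) against the 2 h arrays. The 2 h call ended without 2 h replicate 2 (0.54, adjusted p = 0.0541), with median centring (0.38), without scaling (0.24), with the spike-ins (0.13) and with normexp before the 75th percentile (0.54). Quantile normalization gave 0.33 and normexp with quantile normalization 0.30, both passed.

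**Figure D2:**
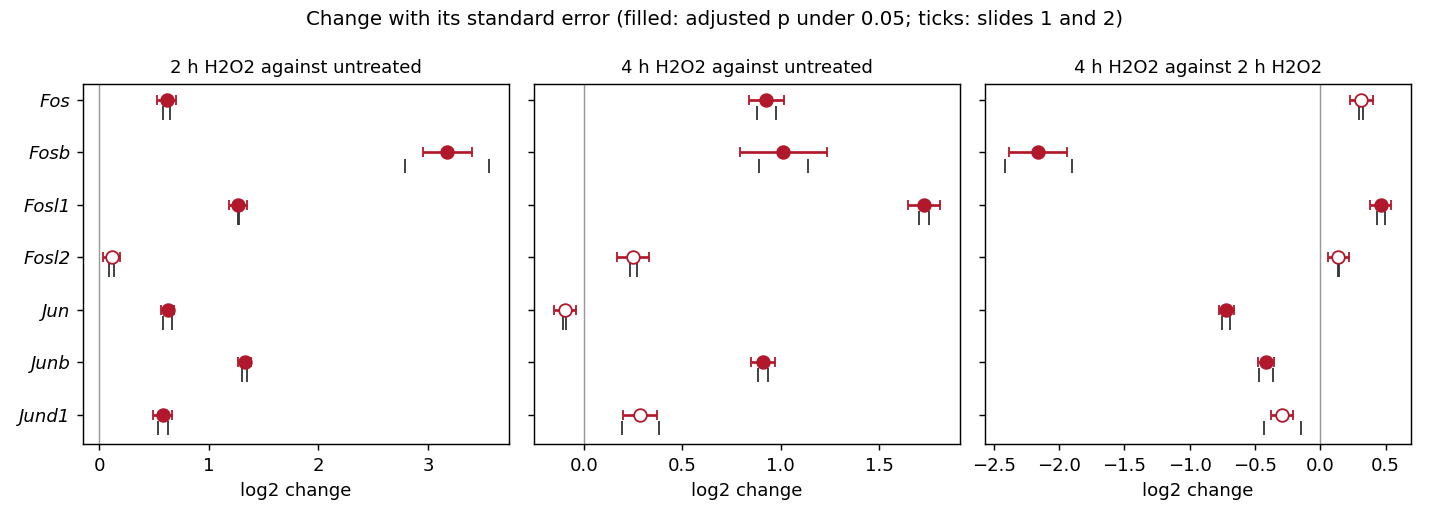
Log2 change of each member in the 3 comparisons, with its standard error as a bar and the changes within slide 1 and slide 2 as ticks, filled where the adjusted p was under 0.05. Fosb stands apart at 2 h (3.17), Fosl1 is the highest at 4 h (1.73), and Fosb (-2.16) and Jun (-0.72) lie lowest at 4 h against 2 h. Fosl2, open in all panels, turns to a fall at 2 h with median centring, without scaling and with spike-in scaling.

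At 4 h against untreated, 4 members had risen (Fosl1, Fosb, Fos and Junb), none had fallen and 3 did not pass, where 24.7% of all genes tested rose and 18.5% fell (43.2% in either direction). The median change was 0.91 over the members and 0.07 over all genes. Relative to that median of all genes, Fosl1 stood at 1.66, Fosb at 0.95, Fos at 0.86, Junb at 0.84, Jund1 at 0.22, Fosl2 at 0.18 and Jun at -0.17. Rises made up 57.2% of all calls at 4 h here, 46.5% with quantile normalization, 35.7% with median centring, 24.4% without scaling and 24.3% with the spike-ins. This comparison and the one at 2 h share the untreated arrays.

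The members parted between the times. At 4 h against 2 h, 1 member rose (Fosl1), 3 fell (Fosb, Jun and Junb) and 3 did not pass, where 13.4% of all genes rose and 16.5% fell (30% in either direction). Rises made up 44.8% of those calls here, 56% with median centring, 58.6% without scaling and 75% with the spike-ins. Set against the median of all genes (-0.08), the differences were -2.08 for Fosb, -0.64 for Jun, -0.34 for Junb, -0.22 for Jund1, 0.22 for Fosl2, 0.39 for Fos and 0.54 for Fosl1. Over the 6 arrays, the root mean square distance between 2 members' log2 profiles (each minus its untreated mean) was smallest for Jun and Jund1 (0.24) and largest for Fosb and Fosl2 (1.83). Fos lay nearest to Jund1 (0.39) and Fosl1 nearest to Junb (0.48).

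Fos and Jun were printed as 10 spots each on every array, which gives the measuring error within an array. The spots of Fos had a coefficient of variation between 4.06% and 7.28%, with an SD between 0.06 and 0.10 on the log2 scale. Those of Jun varied by 3.59% to 4.57%, with an SD between 0.05 and 0.06. One spot of Jun carried an outlier flag on each of the replicate 1 arrays and was left out. For Jun the lowest spot at 2 h was at 1.79, above the highest untreated spot at 1.40 and the highest 4 h spot at 1.31. For Fos the lowest spot at 2 h was at -2.16, above the highest untreated spot at -2.47. Both gaps depend on the scaling. In unscaled signal the lowest Fos spot at 2 h (150.9) was below the highest untreated spot (159.6). The lowest Jun spot at 2 h (2336.9) was then level with the highest untreated spot (2336). Spots of an array are not replicates of a condition, and the other probes had 1 spot each.

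**Figure D3:**
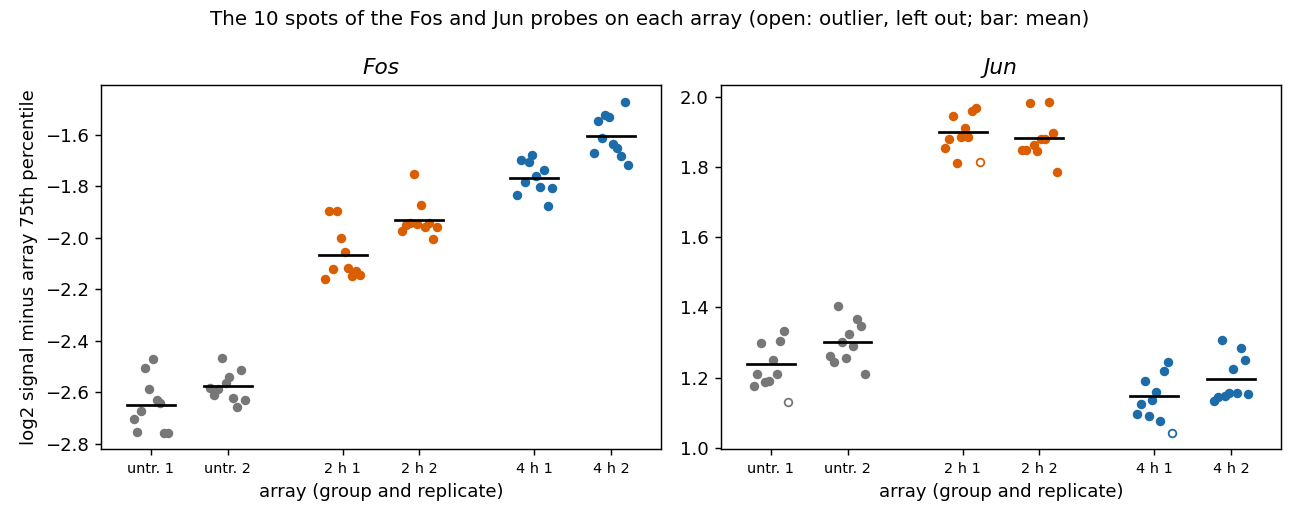
Log2 signal minus the array's 75th percentile for the 10 spots of the Fos probe (left) and of the Jun probe (right) on each array, grouped as untreated (untr.), 2 h and 4 h, replicates 1 and 2. Bars are means and open points are outlier spots left out. The Fos means are highest on the 4 h arrays, and Jun is high on the 2 h arrays alone, with its 2 h spots between 1.79 and 1.99.

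The genes whose profiles over the 6 arrays lay nearest to each member were found among 12230 genes with a symbol that were above background on all arrays. Nearest to Fos were Cfap300 (distance 0.04), Sbds (0.06) and Gse1 (0.06). Fosb had Prnd (0.20), Myl6b (0.37) and Slc2a5 (0.37), all much further off. For Fosl1 they were Slc19a2 (0.09), Spx (0.09) and Hapln3 (0.11), and for Jun they were Prelid2 (0.05), Akap6 (0.07) and Vwa1 (0.08). Junb lay nearest to Synpo2l, Tnnt3 and Acacb (0.08 each), and Jund1 to Odf3 (0.04), Spata1 (0.05) and Ebf4 (0.05). No other member was among the 3 genes nearest to a member.

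Other leucine zipper partners of Fos and Jun were mixed. Of 18 listed, 16 were tested, and 6 rose, 1 fell and 9 did not pass at 2 h (median change 0.37, against 0.12 over all genes), while 6 rose, 2 fell and 8 did not pass at 4 h (median 0.17, against 0.07). Of all genes tested, 23.8% rose and 15.3% fell at 2 h, and 24.7% rose and 18.5% fell at 4 h. Atf3, a stress-induced partner of Jun proteins, rose by 2.61 ± 0.06 at 2 h (6.1-fold, adjusted p = 0.000115) and was at 0.42 ± 0.06 at 4 h, a call kept in 3 of 7 other scaling or background settings. Batf, which pairs with Jun proteins without an activation domain of its own, rose by 1.90 ± 0.16 at 2 h and 0.88 ± 0.16 at 4 h. Mafg, a small Maf protein, rose by 1.01 ± 0.07 and 0.90 ± 0.07. Nfe2l2, which encodes the antioxidant regulator Nrf2, rose by 0.77 ± 0.05 at 4 h (adjusted p = 0.00105). Nfil3 (-0.40 ± 0.12) and Atf2 (-0.36 ± 0.06) fell at 4 h, though the 3 other probes of Atf2 read between -0.44 and 0.90. Under the 7 other settings 5 to 6 partners rose and 1 to 6 fell at 2 h. Over those settings 812 to 3080 of all 17161 genes rose and 745 to 9194 fell.

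Genes of the kinases that signal to Fos and Jun moved in both directions. Of 31 tested, 4 rose, 7 fell and 20 did not pass at 2 h (median 0.03, against 0.12 over all genes), and likewise 4 rose, 7 fell and 20 did not pass at 4 h (median 0.05, against 0.07). Over all genes 39.2% were called at 2 h (23.8% rose and 15.3% fell) and 43.2% at 4 h (24.7% rose and 18.5% fell). The number that fell at 2 h ranged between 3 and 21 over the 7 other settings, against 745 to 9194 of all 17161 genes. Both highest counts came under spike-in scaling. Mapk8, which encodes JNK1, was at -1.19 ± 0.06 at 2 h (adjusted p = 0.000508) on its brightest probe, while its 3 other probes read between -0.62 and -0.16. Map2k7, the kinase that activates JNK, was at -0.91 ± 0.06 at 2 h, with its 2 other probes between -0.11 and 1.62, so its direction depends on the probe. Map3k11, an upstream kinase of the JNK pathway, fell by 0.87 ± 0.13 at 2 h and did not pass at 4 h. Mapkapk3, a kinase downstream of p38, rose by 0.91 ± 0.08 at 2 h and 1.43 ± 0.08 at 4 h (2.7-fold, adjusted p = 0.000657), and Map2k3, which activates p38, by 0.61 ± 0.05 (kept in 5 of 7 other settings) and 0.71 ± 0.05. Map2k6, another activator of p38, fell by 1.07 ± 0.11 at 4 h, with values between -1.33 and -0.09 over the 7 other settings and the call kept in 6.

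Regulators that bind the Fos and Jun promoters were tested for 12 of 13 genes: 6 rose, 1 fell and 5 did not pass at 2 h (median 0.33, against 0.12 over all genes), and 3 rose, 2 fell and 7 did not pass at 4 h (median 0.11, against 0.07). Over all genes 23.8% rose and 15.3% fell at 2 h, and 24.7% rose and 18.5% fell at 4 h. The 7 other scaling or background settings called 1 to 5 of these regulators as rises at 2 h, each below the 6 given here. They called 0 to 4 as falls. Of all 17161 genes, 812 to 3080 rose and 745 to 9194 fell over those settings. Crem, a CRE-binding factor, rose by 0.80 ± 0.05 at 2 h and 0.88 ± 0.05 at 4 h on its brightest probe. Its 5 other probes read between -0.21 and 0.83 at 2 h and between -0.70 and 0.92 at 4 h, so they differ in direction. Srf, the serum response factor, was at 0.36 ± 0.08 at 2 h, where its call held in 1 of 7 other settings and its sign turned in 1, and it fell by 0.41 ± 0.08 at 4 h (adjusted p = 0.0191). Mef2c, a factor of the MEF2 family, fell by 1.30 ± 0.13 at 4 h, with the call kept in 6 of 7 other settings and values from -1.56 to -0.74. Its relatives Mef2d (0.61 ± 0.12) and Mef2a (0.60 ± 0.08) rose at 2 h, calls kept in 4 and 5 of 7 other settings. Of the cofactors of Srf, Mrtfa fell by 0.46 ± 0.08 at 2 h, and the rise of Mrtfb (1.35 ± 0.37, adjusted p = 0.0446) held in 0 of 7 other settings, while its other probe read 5.54 at 2 h and 0.05 at 4 h.

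Genes that limit Fos and Jun proteins or transcripts rose in 7 of 15 cases at both times, with 1 that fell and 7 that did not pass (median 0.49 at 2 h and 0.43 at 4 h, against 0.12 and 0.07 over all genes, of which 23.8% and 24.7% rose). Among those that rose were 4 phosphatases that switch off MAP kinases. At 2 h Dusp4 rose by 1.49 ± 0.10 (2.81-fold, adjusted p = 0.000952), Dusp6 by 1.20 ± 0.08 and Dusp1 by 1.15 ± 0.07. Dusp10, which acts on JNK and p38, rose by 1.04 ± 0.09 at 2 h and 0.99 ± 0.09 at 4 h. Fbxw7, the ubiquitin ligase subunit that marks phosphorylated Jun for breakdown, rose by 0.68 ± 0.12 at 2 h (kept in 5 of 7 other settings) and 1.03 ± 0.12 at 4 h (2.04-fold, adjusted p = 0.00368). Det1, part of another ligase for Jun, fell by 0.41 ± 0.09 and 0.44 ± 0.09. Under the 7 other settings 4 to 7 of these genes rose and 0 to 5 fell at 2 h. Over those settings 812 to 3080 of all 17161 genes rose and 745 to 9194 fell.

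Of 30 genes listed here as AP-1 targets, not all of them known as such from fibroblasts, 29 were named on the array and 27 were tested. At 2 h 18 rose, 0 fell and 9 did not pass (median 0.50). At 4 h 18 rose, 0 fell and 9 did not pass (median 0.34). Over all genes 23.8% rose at 2 h and 24.7% at 4 h, with medians of 0.12 and 0.07. Under the 7 other scaling or background settings 4 to 17 targets rose and 0 to 4 fell at 2 h. At 4 h 5 to 16 rose and 0 to 2 fell. Of all 17161 genes, 812 to 3080 rose and 745 to 9194 fell at 2 h over those settings. The ranges over all genes at 4 h were 1512 to 3970 rises and 851 to 6181 falls. Hmox1, the haem-degrading antioxidant enzyme, rose by 2.48 ± 0.08 at 2 h (5.6-fold, adjusted p = 0.000189) and 2.41 ± 0.08 at 4 h. Mmp9, a matrix protease, was not well above background on the untreated arrays, so it was tested only through the H2O2 arrays, where it is high, and no p is given. The counts of 18 rises at 2 h and at 4 h include it, although its entry into the test was not independent of its rise. By group means it was at least 4.78-fold higher at 2 h and at least 3.51-fold higher at 4 h in the scaling used here, where the bound takes the dimmest signal above background or the probe's own value, whichever was larger. Its fitted change depended on the background treatment and scaling, at 0.64 to 2.28 on the log2 scale at 2 h and 0.45 to 1.88 at 4 h over the 7 other settings. Mmp10, another matrix protease, rose by 1.13 ± 0.23 at 2 h, a call kept in 2 of 7 other settings, and by 1.45 ± 0.23 at 4 h. Hbegf, a growth factor of the EGF family, rose by 1.36 ± 0.06 at 2 h (2.57-fold, adjusted p = 0.000346) and was at 0.21 ± 0.06 at 4 h, where 2 of 7 other settings turned its sign. Hmox1 is also a known target of Nrf2, and several of these genes answer to NF-kB, so the list is not specific to AP-1.

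**Figure D4:**
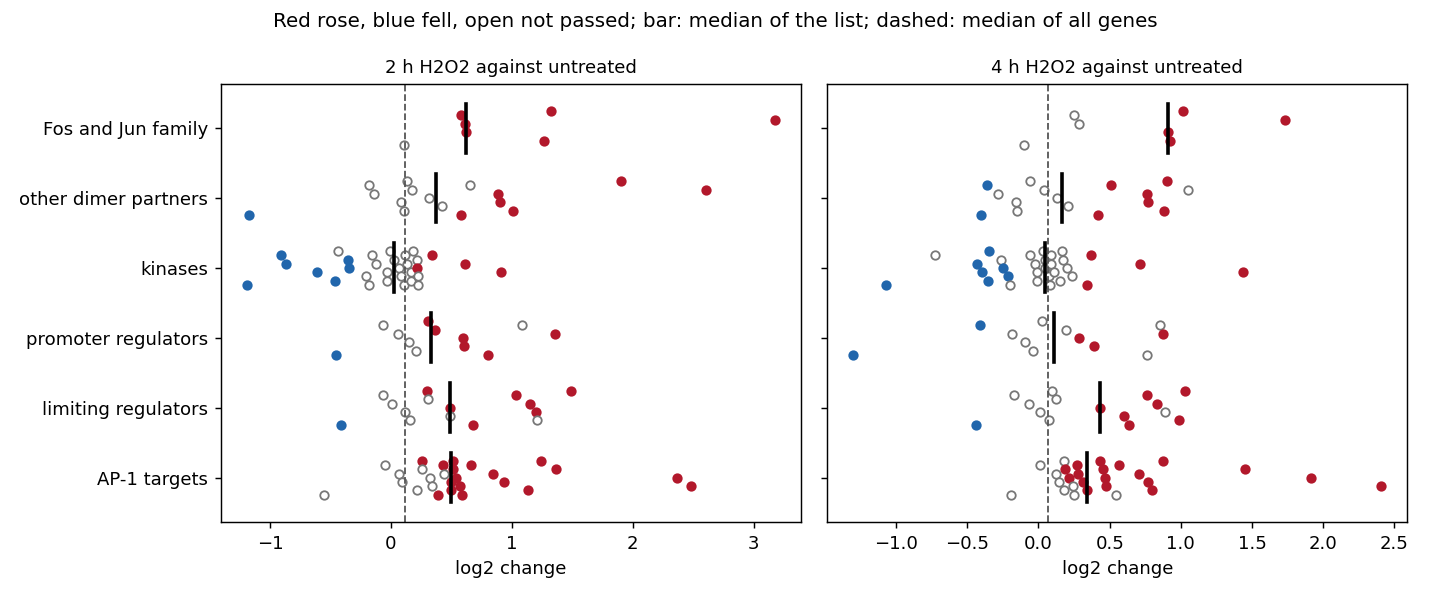
Log2 change of every tested gene of the family and of the 5 related lists, at 2 h (left) and 4 h (right) against untreated. Red points rose, blue points fell, open points did not pass, short bars are list medians and the dashed line is the median of all genes (0.12 and 0.07). Among the kinases 4 rose and 7 fell at both times, and no AP-1 target fell. With spike-in scaling 4 targets fell at 2 h, where 9194 of all 17161 genes fell.

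**Figure D5:**
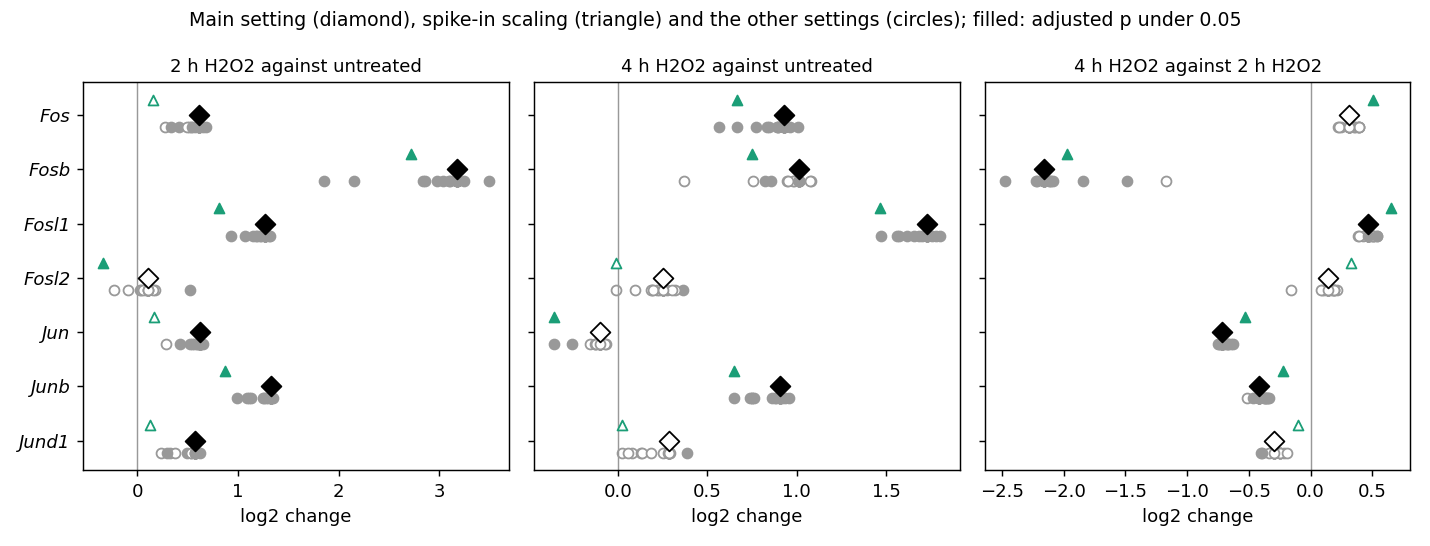
Log2 change of each member in the 3 comparisons under the main setting (diamond), spike-in scaling (triangle) and the other settings (circles), filled where the adjusted p was under 0.05. Fosb, Fosl1 and Junb stay filled at 2 h, Fos, Fosl1 and Junb at 4 h, and Jun at 4 h against 2 h. Fosl2 crosses 0 in every panel.

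Across the 20 other settings (scaling, background correction, filter, probes, block, variance model and arrays left out), the call was kept in all for Fosb, Fosl1 and Junb at 2 h, for Fos, Fosl1 and Junb at 4 h, and for Jun at 4 h against 2 h. Spike-in scaling gave the lowest rise for most members at 2 h, as the plot of the settings shows. It left Fosb at 2.72, Junb at 0.87 and Fosl1 at 0.82.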

How the data were processed

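The authors deposited 1 scanner file per array, with fluorescence intensity per spot in the Cy3 channel, written by Feature Extraction 9.5.3.1 under protocol GE1-v5_95_Feb07 from a G2505B scanner, per the file headers. They also deposited a value table of intensity, which equals the processed signal of those files within 5e-04.

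From the authors' deposited intensity, log2 values were computed here: log2 of the processed signal minus the array's 75th percentile over 43379 non-control spots. Spots flagged as outliers (99 to 149 per array) were dropped and the remaining spots of a probe averaged. Probes took the symbol of the RefSeq gene table through their accession (22951) or a current or older symbol (6659 and 3109), and 8455 kept the file's name. A gene was read from its brightest probe, and tested if that probe was well above background on both arrays of some group. A further 30 genes with an array of flagged spots alone were left out, which gave 17161 genes, and the same fit over 25841 probes gave the second probes of Fosl2 and Junb.

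One limma 3.58.1 model (R 4.3.3, and data.table at version 1.17.8) of all 6 arrays, with no block, gave the 3 comparisons, with 3 residual and 1.64 prior degrees of freedom, two-sided p-values and Benjamini-Hochberg adjustment over all genes. A fold is 2 to the power of the log2 change. The number of arrays limits the precision. The code was tested on simulated data. Alternatives changed the scaling, background correction, filter, probe choice, block, variance model and arrays.

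Replicate numbers pair the arrays, because the file headers put the replicate 1 arrays on 1 slide and the replicate 2 arrays on another. The replicate 1 deviations from the group means correlated at 0.24 (2 h and untreated), 0.20 (4 h and untreated) and 0.24 (4 h and 2 h) over genes. A time point has the same position on both slides, so position and time cannot be told apart.

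The members, the 5 related lists and the tests were chosen with earlier results of these data known. The text names all members, the 3 genes nearest to each member that passed a test, and members of the lists drawn from the 3 largest changes in each direction at 2 h and 4 h. No source used here names a build for the coordinates of the probes, which served only for distances between probes. Values of 2 genes of the lists are not reported here.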

Additional observations from a re-analysis of the deposited data

Results flagged for a closer look

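For 4 members the change from untreated cells differed between 4 h and 2 h by the test of that difference itself. That test is the 4 h against 2 h term of the limma model, in which time in culture and H2O2 cannot be told apart. Over all genes, 30% were called in this comparison (13.4% rose and 16.5% fell). Fosb was at -2.16 ± 0.22 on the log2 scale (adjusted p = 0.00481, n = 2 arrays a group), lower at 4 h on both slides, and lost its call with normexp before the 75th percentile (-1.17, adjusted p = 0.104). Jun was at -0.72 ± 0.06 (adjusted p = 0.00293), lower on both slides, after a rise at 2 h, with no call at 4 h against untreated (-0.10, adjusted p = 0.224). Junb was at -0.42 ± 0.06 (adjusted p = 0.011) on its first probe, a call lost in 4 of the 20 other settings. Fosl1 went the other way, at 0.46 ± 0.08 (adjusted p = 0.0168), higher at 4 h on both slides. The Fosl1 call was lost in 6 of the 20 other settings, with the direction kept. These differences do not depend on the untreated arrays other than through the pooled spread.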

How the results depend on the processing

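Over the 20 other settings, 364 member values kept direction and call, 29 lost the call, 21 gained one and 6 reversed. Fosl2 reversed at 2 h with median centring (-0.087), without scaling (-0.23) and with spike-ins (-0.34), and at 4 h without scaling (-0.01) and with spike-ins (-0.012). At 4 h against 2 h it reversed with the mean of its probes (-0.16), where the opposed second probe enters the mean. The cause of the other changes was not tested. At 2 h, 3 members rose without scaling or with spike-ins, and 1 fell with spike-ins. Of all 17161 genes, 1528 rose at 2 h without scaling and 1458 with spike-ins, where 9194 fell. At 4 h, 1 member fell with median centring, without scaling and with spike-ins, where 4106, 5457 and 6181 of all genes fell. At 4 h against 2 h, 2 members rose with quantile normalization (with or without normexp), median centring, spike-ins or the replicate block. The same held with only genes above background on all arrays. In these settings 2230 to 3836 of all genes tested rose. In that comparison 0 rose without scaling, with normexp before the 75th percentile or with no filter, leaving out single arrays gave 0 to 1, and 1 member (Jun) fell with normexp before the 75th percentile, where Fosb and Junb lost the call. The replicate block, which equals a slide block here, so that none was run apart, called Fosl2 at 4 h (0.25) and Fos at 4 h against 2 h (0.31) and changed no other call of a member. Over all genes 6721, 7417 and 5145 passed at 2 h, at 4 h and at 4 h against 2 h. Normexp before the 75th percentile left 1557, 2363 and 1026, and no filter on dim probes (27567 genes) 4041, 4575 and 2506. Spike-ins gave 10652 at 2 h. Leaving out 1 array, where the lone array is assumed to vary like the others, left as few as 3596, 4346 and 2358 genes. The untreated signals of Fosb were 42.4 and 41.4, and its change at 2 h moved between 1.86 and 3.49 over the settings.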

Other observations

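Between 2 h and 4 h, each related list held genes called in both directions. In that comparison 13.4% of all genes rose and 16.5% fell (30% in either direction). The list counts were not tested against these shares. The genes named below were chosen by their change at 2 h or 4 h against untreated, on arrays that this comparison uses again. Of 16 other dimer partners 1 rose and 5 fell, led by Atf3, which was 4.58-fold lower at 4 h than at 2 h (-2.19 ± 0.06 on the log2 scale, limma adjusted p = 0.00164), and Batf (-1.02 ± 0.16, adjusted p = 0.0126). Both slides showed the fall of Atf3 (-2.15 and -2.24). Hbegf, one of 4 AP-1 targets that fell (1 of 27 rose), was 2.22-fold lower at 4 h (-1.15 ± 0.06, adjusted p = 0.00172). Of 15 limiting regulators 1 rose and 3 fell, namely Dusp4 (-0.66 ± 0.10), Dusp6 (-0.60 ± 0.08) and Dusp1 (-0.38 ± 0.07), whose call held in 4 of 7 other scaling or background settings.

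Promoter regulators at 4 h against 2 h gave 1 rise and 4 falls of 12, among them Mef2c (-1.36 ± 0.13, adjusted p = 0.0042) and Srf (-0.77 ± 0.08, adjusted p = 0.00537). Of 31 kinases 6 rose and 2 fell. Map2k6 was 2.37-fold lower (-1.24 ± 0.11, adjusted p = 0.00372, at -0.26 in the setting that moved it most) and Map3k11 2.05-fold higher (1.03 ± 0.13, adjusted p = 0.00708) at 4 h. Mapk8 read 1.27 ± 0.06 on its brightest probe (adjusted p = 0.00169), while its 3 other probes read between -0.68 and 0.35, so the probes of the JNK1 gene differ in direction. The genes named for 4 h against 2 h were chosen from the lists by the size of the change at 2 h or 4 h against untreated. This comparison reuses the 2 h and 4 h arrays of that choice, which favours differences in the direction shown. Their adjusted p and kept calls are thus no independent support. Over the 7 other scaling or background settings the calls held in all 7 for Atf3, Hbegf, Srf, Map3k11 and the brightest Mapk8 probe, and in 6 for Batf, Dusp4, Dusp6, Mef2c and Map2k6.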
